A study of Homo sapiens with 4 samples.

Results

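Expression of the NF-κB subunits and their feedback genes was measured by RNA sequencing in 2 cell lines of atypical teratoid/rhabdoid tumor (AT/RT), before and after chemotherapy. The set is a list of gene names with no threshold on measured values, though it was drawn up with earlier results of these data known, and it holds 10 of the 18449 genes in the count table. It consists of the 5 subunit genes (*NFKB1*, *NFKB2*, *REL*, *RELA*, *RELB*) and 5 genes known as feedback targets of the pathway (*NFKBIA*, *NFKBIE*, *TNFAIP3*, *BIRC3*, *TNFAIP2*). All 10 genes had counts and none was lost to a filter.

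The libraries came from BT-16 and CHLA-266, patient-derived lines of the MYC subgroup of AT/RT, a malignant brain tumor of early childhood marked by loss of *SMARCB1*. Treated cells received 1 µM doxorubicin, 5 µM etoposide and 1 µM vincristine, given one after the other on 3 consecutive days, and per the study's methods were the population that regrew after most cells had died. Untreated cells of the same line were the control, so there were 4 libraries, 2 per condition and 1 per cell line and condition. The comparison asks how cells that outlived the drugs differ from the cells they came from.

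The 4 libraries held 49849258 to 75087194 counts, the treated ones being the shallower in both lines (51489714 and 49849258). *SMARCB1* was read in every library, at 15.9 to 21.3 counts per 1000000 (CPM, with library sizes adjusted by the trimmed mean of M values, TMM) beside 509 to 904 for *SMARCA4*, its partner in the same remodeling complex. Treated libraries held more reads in 519 genes of families such cells should not use (olfactory and taste receptors, keratin-associated proteins, beta-defensins): 35.4 and 40.7 summed CPM in untreated BT-16 and CHLA-266 against 158 and 123 after treatment. Summed markers of other cells were higher as well. The summed CPM of 10 markers each ran from 3.72–6.65 untreated to 10.4–11.8 treated for macrophages, from 3.87–4.44 to 5.93–11.5 for lymphocytes, from 1.61–2.55 to 10.1–15.3 for endothelium and from 11.1–14.9 to 13.1–24.6 for fibroblasts, and 3, 4, 4 and 2 of the 10 passed the test as higher (3, 2, 3 and 3 once lines were blocked), beside 16.1% of all genes. The fibroblast marker *COL1A2* passed as lower, with a CPM of 5.91 and 6.69 untreated and of 1.78 and 0.943 treated in BT-16 and CHLA-266 (log2 fold change -2.21, edgeR adjusted p = 0.00758). *CD68* was at 0 in both treated libraries, from 3 and 1 counts in untreated BT-16 and CHLA-266. In treated CHLA-266, *CD3E*, *ERG* and *LUM* were at 0, as they were untreated. *NKG7*, *FAP* and *FCER1G* were also at 0 there, from 8, 10 and 17 counts. In BT-16, *CD3E* went from 0 to 43 counts, *ERG* from 6 to 61 and *LUM* from 16 to 8. *EMCN* was at 0 in treated BT-16 and at 26 counts in treated CHLA-266, from 0 in both untreated libraries. The part of this shift in the results below was not tested. In bulk RNA, fewer cells that use a gene and less of its RNA per cell cannot be told apart.

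NF-κB proteins are transcription factors that bind DNA as pairs of subunits. In the canonical branch, RELA or REL pairs with the processed product of *NFKB1*, and IκB proteins hold the pair in the cytoplasm until a kinase complex marks them for destruction. In the non-canonical branch, the kinase encoded by *MAP3K14* triggers processing of the *NFKB2* product, which then acts with RELB. Active NF-κB raises the transcription of its own inhibitors, among them *NFKBIA* and the ubiquitin-editing enzyme gene *TNFAIP3*, which closes a negative feedback loop.

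The DNA element read by these proteins, the κB consensus, was searched in the 250 bases upstream of annotated transcript starts (RefSeq, GRCh38.p14, both strands). Windows were given for 8 of the 10 genes, 12 windows in all; none was given for *RELB* and *NFKBIE*. The consensus was found in 6 of these 8 genes (75%), against 14.5% of the 14642 genes of the count table with a window. By window it was found in 58.3% of theirs, against 11.3% of the 20619 windows of count-table genes and 9.96% of all 35116 windows. The members were listed as subunits and known feedback targets of the pathway. A high share can therefore come from the choice of genes and is no result of these libraries. The windows below belong to the members with the largest change (*TNFAIP3*), to the subunit with the smallest adjusted p (*NFKB2*), and, as a contrast, to the most abundant member, whose level barely moved (*NFKBIA*). Each is written 5′ to 3′ on the strand of the gene and ends just before the RefSeq transcript start. Capitals mark matches to the κB consensus on either strand.
TNFAIP3, chr6:137867009-137867258, plus strand: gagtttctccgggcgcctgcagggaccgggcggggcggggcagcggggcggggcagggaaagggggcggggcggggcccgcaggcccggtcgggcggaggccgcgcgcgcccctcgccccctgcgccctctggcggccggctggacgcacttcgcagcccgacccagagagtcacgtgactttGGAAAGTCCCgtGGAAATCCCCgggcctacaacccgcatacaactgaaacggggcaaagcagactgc
NFKB2, chr10:102394328-102394577, plus strand: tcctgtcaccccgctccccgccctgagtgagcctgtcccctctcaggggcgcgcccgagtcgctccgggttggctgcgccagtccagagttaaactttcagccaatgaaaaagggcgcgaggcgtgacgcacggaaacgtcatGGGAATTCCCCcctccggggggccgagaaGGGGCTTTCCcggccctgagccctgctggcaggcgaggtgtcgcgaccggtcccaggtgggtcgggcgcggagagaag
NFKB2, chr10:102395455-102395704, plus strand: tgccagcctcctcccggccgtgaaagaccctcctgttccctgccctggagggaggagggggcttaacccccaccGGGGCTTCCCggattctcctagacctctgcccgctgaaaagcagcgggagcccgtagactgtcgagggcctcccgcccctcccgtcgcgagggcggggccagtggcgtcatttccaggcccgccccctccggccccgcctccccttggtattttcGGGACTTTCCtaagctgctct
NFKBIA, chr14:35404750-35404999, minus strand: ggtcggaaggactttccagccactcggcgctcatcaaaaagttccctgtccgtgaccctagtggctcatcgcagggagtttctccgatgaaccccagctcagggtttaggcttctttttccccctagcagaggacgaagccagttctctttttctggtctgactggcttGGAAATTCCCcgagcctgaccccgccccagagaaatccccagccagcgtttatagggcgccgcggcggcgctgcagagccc

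The *TNFAIP3* window held 2 separate matches, which begin 67 and 55 bases before the start. The first *NFKB2* window shown held 3, of which the pair at 107 and 106 bases overlap and the other lies 78 bases before the start, and the second held 2, at 176 and 21 bases. A further *NFKB2* window, not shown (102393860 to 102394109), held 0. *NFKBIA* held 1 match, 81 bases before its start. *NFKB1* held 1 at 49 bases in 1 window and 0 in its other (102501684 to 102501933). *REL* held an overlapping pair at 47 and 46 bases and *BIRC3* held 2 at 199 and 135 bases, while the windows of *RELA* and *TNFAIP2* held none. Whether the number of matches goes with the response was not tested. *REL* and *BIRC3*, with 2 matches each like *TNFAIP3*, did not pass the test. However, the 2 in *REL* overlap, and *BIRC3*, at 2 to 34 counts, was too scarce for a change to be seen. A match is a description of the letters in the window and says nothing about binding, and the deposited data hold no binding measurement.

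Treated cells of both lines had higher RNA of 3 members, *TNFAIP3*, *NFKB2* and *RELB*, and no member was lower. *TNFAIP3* rose 2.95-fold, *NFKB2* 1.83-fold and *RELB* 1.71-fold (edgeR quasi-likelihood test, 2 treated against 2 untreated libraries, Benjamini-Hochberg adjusted p of 0.00362, 0.00765 and 0.0434). The other 7 members did not pass. *NFKBIA*, the gene of the main IκB inhibitor, was at 0.998-fold, while *RELA* (1.34-fold) and *TNFAIP2* (1.75-fold) were higher in both treated libraries but missed the threshold. Over all 18066 genes tested, 16.1% were higher and 19.1% lower, so 3 of 10 higher is 30.0% against that background. The median log2 fold change was 0.60 over the members and 0.24 over all genes.

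Cell line entered the same test as a block, since each treated library has an untreated partner of its own line. With it, 5 members were higher, *RELA* (adjusted p = 0.0248) and *TNFAIP2* (adjusted p = 0.0132) being added, and 0 were lower, against 17.9% higher and 23.7% lower over all genes (edgeR). For the count of 0 lower members, edgeR without the block gave 0 at an unadjusted p under 0.05 and DESeq2 gave 0. Both treated libraries lay above both untreated libraries for 5 of 10 members (*NFKB2*, *RELA*, *RELB*, *TNFAIP3*, *TNFAIP2*), which is 50% beside 40.2% of all genes, a share near the background. Both lay below for 0 members, beside 32.3% of all genes.

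**Figure D1:**
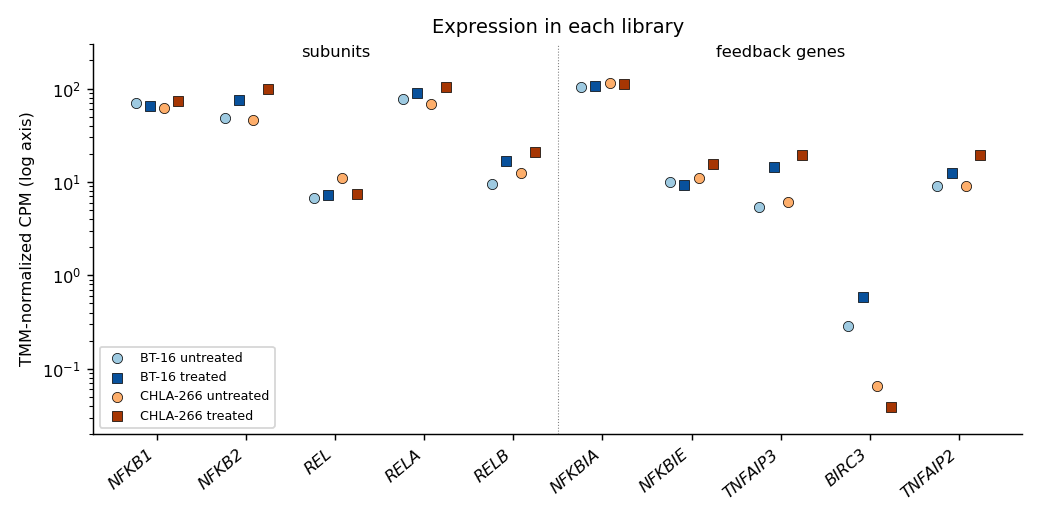
Expression of the 10 genes in each of the 4 libraries, in TMM-normalized CPM on a log axis; each point is 1 library, circles untreated and squares treated, blue BT-16 and orange CHLA-266. The squares of NFKB2, RELA, RELB, TNFAIP3 and TNFAIP2 lie above both circles, those of NFKBIA lie between 107 and 111 beside 103 and 115 untreated, and BIRC3 stays below 0.6 in every library.

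The non-canonical subunits came first among the subunit genes. *NFKB2* encodes the precursor that is processed to the RELB partner, and lies on chromosome 10 (hg38, 102394110 to 102402524, ENSG00000077150). Its level was 48.6 and 46.4 TMM-normalized CPM in untreated BT-16 and CHLA-266 and 74.6 and 99.3 in the treated libraries, from 2857 to 5158 counts. The treated libraries were both higher and the groups did not overlap. The log2 fold change was 0.87 (SE 0.18, n = 2 libraries per condition, edgeR adjusted p = 0.00765). The log2 ratio of treated to untreated was 0.62 in BT-16 (95% counting interval from 0.55 to 0.68) and 1.10 in CHLA-266 (from 1.03 to 1.16). The counting intervals of the lines do not meet, but with 1 library per line and condition a difference in response between the lines could not be tested for this or any other member.

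*RELB* (chromosome 19, 45001461 to 45038192, ENSG00000104856), the subunit that acts with the processed *NFKB2* product, was less abundant. It stood at 9.61 CPM in untreated BT-16 and 12.4 CPM in untreated CHLA-266, and at 16.6 and 21.0 CPM after treatment. Both treated libraries were above both untreated ones. Its log2 fold change was 0.77 (SE 0.25, edgeR adjusted p = 0.0434), with nearly the same ratio in each line, 0.79 (0.65 to 0.94) in BT-16 and 0.76 (0.63 to 0.90) in CHLA-266. The call was the least firm of the 3. It was lost without untreated BT-16 (log2 fold change 0.60, adjusted p = 0.192), without untreated CHLA-266 (0.97, adjusted p = 0.0605) and without treated CHLA-266 (0.61, adjusted p = 0.15).

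Of the canonical subunits, *RELA*, whose protein carries a strong activation domain, moved by less. It was read at 76.8 and 67.7 CPM untreated and at 90.7 and 104 CPM treated, in the order BT-16 and CHLA-266. The treated libraries were both higher, without overlap. At a log2 fold change of 0.43 (SE 0.16, edgeR adjusted p = 0.0704) it missed the threshold, yet it passed in all 9 alternatives that kept the 4 libraries, at an adjusted p of 0.00564 to 0.0477. It passed in 0 of the 4 fits that left a library out.

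*NFKB1*, the gene of the canonical precursor, was at 70.4 and 62.3 CPM in untreated BT-16 and CHLA-266 and at 65.3 and 73.4 CPM after treatment. The groups overlapped, since the treated library was the lower one in BT-16 and the higher one in CHLA-266. Its log2 fold change was 0.064 (SE 0.16, edgeR adjusted p = 0.767), and the ratios were -0.11 (-0.17 to -0.048) and 0.24 (0.17 to 0.30). The sign in BT-16 depends on the scaling, being 0.18 with library totals and 0.29 with upper-quartile scaling.

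*REL*, best known from lymphoid cells, had the lowest level of the subunits. Untreated BT-16 and CHLA-266 gave 6.68 and 11 CPM, and treated cells 7.27 and 7.45 CPM. Untreated CHLA-266 was the high library and the other 3 were close together, so the groups overlapped. Over both lines the change was -0.27 on the log2 scale (SE 0.33, edgeR adjusted p = 0.538), made of a ratio of 0.12 (-0.074 to 0.31) in BT-16 and of -0.56 (-0.75 to -0.38) in CHLA-266.

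**Figure D2:**
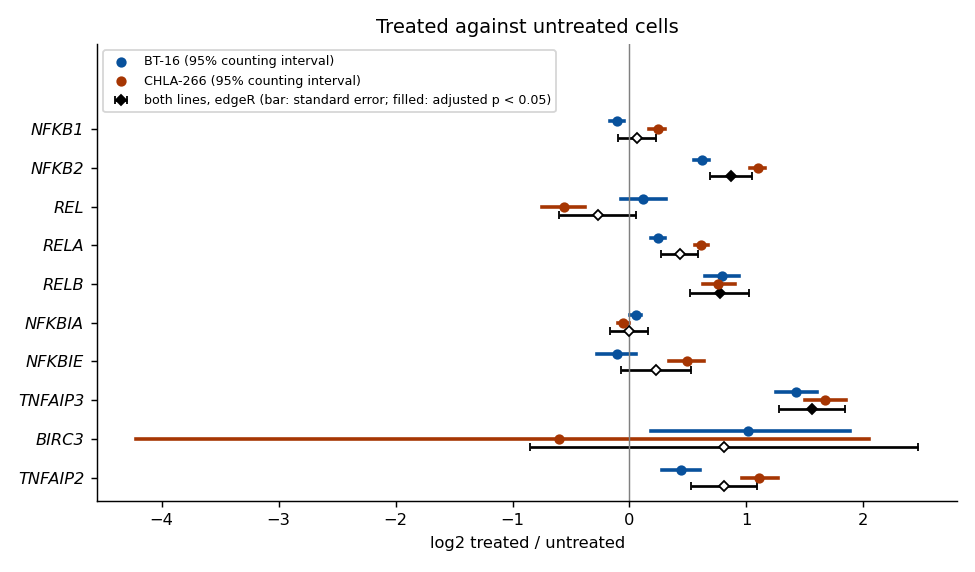
Log2 ratio of treated to untreated expression; blue and orange points are the ratios within BT-16 and CHLA-266 with 95% counting intervals, and diamonds are the edgeR log2 fold change over both lines with its standard error, filled where the adjusted p is under 0.05. NFKB2, RELB and TNFAIP3 are filled, NFKB1, REL, NFKBIA, NFKBIE and BIRC3 have the lines on opposite sides of 0 (with library totals or upper-quartile scaling only REL and BIRC3 do), and the interval of BIRC3 in CHLA-266 runs from -4.22 to 2.05.

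Among the feedback genes, *TNFAIP3* changed most. Its product edits ubiquitin chains on signaling proteins upstream of the IκB kinase and restrains the pathway, and the gene lies on chromosome 6 (137867214 to 137883314, ENSG00000118503). Untreated libraries held 374 counts in each line, 5.42 CPM in BT-16 and 6.08 CPM in CHLA-266, and treated libraries held 841 and 1005 counts, 14.5 and 19.3 CPM. The treated libraries were well above the untreated ones in both lines. The log2 fold change was 1.56 (SE 0.28, edgeR adjusted p = 0.00362), with ratios of 1.42 (1.25 to 1.60) in BT-16 and 1.67 (1.5 to 1.85) in CHLA-266. The call held in all 9 alternatives and without any 1 library, as did that of *NFKB2*.

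The 3 genes with the most similar pattern to *TNFAIP3* over the 4 libraries, among 12620 genes with at least 10 counts in each, were *MYH7B*, *PRSS8* and *MMP24*. Their centred log2 CPM differed from its own by a root mean square of 0.0161, 0.051 and 0.0623. With 4 points this likeness describes these libraries only.

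The IκB gene *NFKBIA* was the contrast. It gave 103 and 115 CPM in untreated BT-16 and CHLA-266 and 107 and 111 CPM in the treated libraries, which lie between the untreated ones. The log2 fold change was -0.0025 (SE 0.16, edgeR adjusted p = 0.99), and the line ratios were 0.052 and -0.053. Scaling by library totals or by the upper quartile turned the ratio in CHLA-266 to 0.11 and 0.24. *NFKBIE*, which encodes another IκB protein, was at 10.1 and 11 CPM untreated and at 9.38 and 15.5 CPM treated. Treated CHLA-266 was the high library and the groups overlapped, with a log2 fold change of 0.23 (SE 0.30, edgeR adjusted p = 0.559). Its ratio was -0.11 (-0.28 to 0.052) in BT-16, turning to 0.18 with library totals and 0.29 with upper-quartile scaling, and 0.49 (0.34 to 0.64) in CHLA-266.

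*TNFAIP2*, first known as a gene induced by tumor necrosis factor, was at 9.16 and 8.97 CPM in untreated BT-16 and CHLA-266 and at 12.4 and 19.4 CPM after treatment. Both treated libraries were higher, CHLA-266 by the wider margin (ratio 1.11, interval 0.96 to 1.27, beside 0.44 and 0.28 to 0.60 in BT-16). Over both lines the log2 fold change was 0.81 (SE 0.28, edgeR adjusted p = 0.0544). It passed in all 9 alternatives that kept the 4 libraries, at 0.0129 to 0.05. Of the 4 fits that left a library out it passed in 1, without treated BT-16 (1.10, adjusted p = 0.00496). It did not pass without untreated BT-16 (0.83, adjusted p = 0.132), without untreated CHLA-266 (0.80, 0.149) or without treated CHLA-266 (0.47, 0.339).

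*BIRC3*, the gene of an inhibitor of apoptosis that acts in complexes with TRAF proteins, was close to absent. BT-16 held 20 counts untreated and 34 treated, and CHLA-266 held 4 and 2 counts. The BT-16 libraries were the higher pair whatever the treatment. No change was detectable at this depth (log2 fold change 0.81, SE 1.66, edgeR adjusted p = 0.711).

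Between the lines, 0 members passed the test of CHLA-266 against BT-16 with treatment in the model, beside 2.30% of all genes in either direction (edgeR). At an unadjusted p under 0.05 the count was also 0 of 10, and DESeq2 gave 0. The estimate furthest from 0 was that of *BIRC3*, a log2 difference of -2.96 (SE 2.30, adjusted p = 0.817), and the other 9 lay between -0.0034 and 0.42.

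Levels of different genes were compared in CPM per kilobase of exon, which takes length into account. *NFKBIA* was first with 30.4 to 33.8 over the 4 libraries, above every other member. *RELA* followed with 12.4 to 19.0 and *NFKB2* with 8.31 to 17.8, ranges that overlap. *RELB* (3.21 to 7.01), *NFKBIE* (3.63 to 5.99) and *NFKB1* (3.97 to 4.68) could not be ranked, nor could *TNFAIP2* (1.77 to 3.83) and *TNFAIP3* (0.841 to 3). *REL* (0.39 to 0.643) and *BIRC3* (at most 0.0786) closed the order. The place of *NFKB1* depends on the length used: its merged exons span 15.68 kb and its canonical transcript 4.06 kb, with which it read 15.4 to 18.1. On canonical lengths *RELA* read 26.9 to 41.2, *NFKB2* 15.4 to 32.9, *RELB* 4.26 to 9.31 and *NFKBIE* 4 to 6.6, so *NFKB1* lay below *RELA*, overlapped *NFKB2* and lay above *RELB* and *NFKBIE*.

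The same quantity in raw counts per kilobase was set beside the 519 genes of unused families, whose 95th percentile was 6.30 and 6.44 in untreated BT-16 and CHLA-266 and 40.9 and 27.8 in the treated libraries. In both treated libraries 8 of the 10 members lay above it, beside 10271 of all 18066 genes tested. *TNFAIP3* was at 131 and 156, *RELB* at 321 and 364 and *NFKB2* at 773 and 924 counts per kilobase. *REL*, at 24.5 and 22.6, and *BIRC3*, at 4.54 and 0.267, did not lie above it. All 3 members that passed the test were thus read above that 95th percentile in both treated libraries. Below, the level of the unused families means this 95th percentile.

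**Figure D3:**
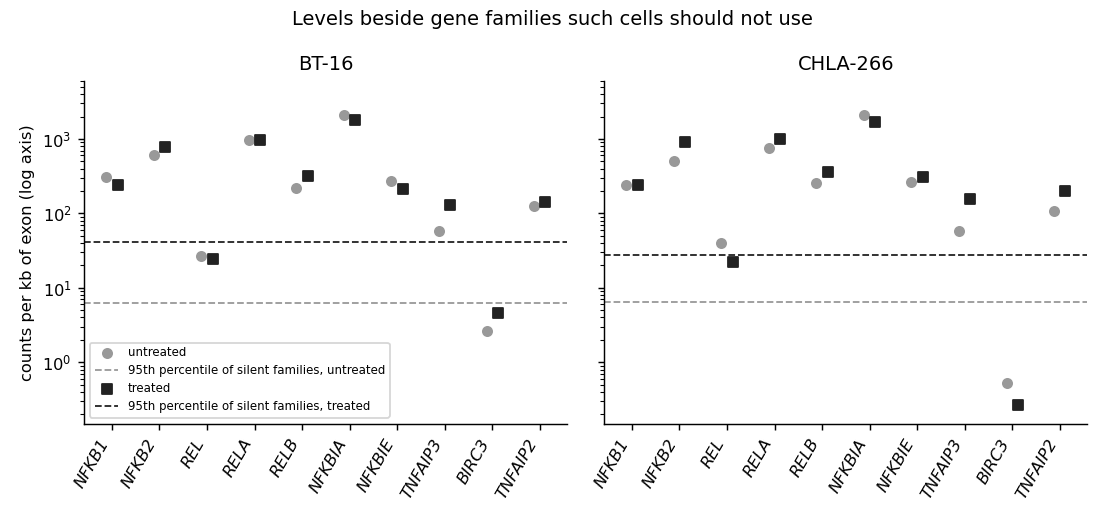
Counts per kilobase of exon (log axis) of the 10 genes in BT-16 and CHLA-266; grey circles are untreated and black squares treated libraries, and dashed lines are the 95th percentile of 519 genes of families such cells should not use. Treated REL falls below the treated line in both lines and BIRC3 below both lines, and the other 8 members lie above.

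Ratios of 2 genes within a library do not depend on how libraries are scaled. *NFKB2* counts per *NFKB1* count went from 0.69 to 1.14 in BT-16 and from 0.745 to 1.35 in CHLA-266. The precursor gene of the non-canonical branch thus gained on that of the canonical branch by 1.66-fold and 1.81-fold. *RELB* per *RELA* went from 0.125 to 0.183 in BT-16 and from 0.183 to 0.203 in CHLA-266; the gain in CHLA-266 was 1.11-fold. *TNFAIP3* per *NFKBIA*, a pair of inhibitors of the same pathway, went from 0.0526 to 0.136 and from 0.0529 to 0.175, or 2.59-fold and 3.30-fold. Of 7 ratios computed, these 3 set members of the same role side by side and were chosen for display after their values were seen. The other 4 changed, in BT-16 and CHLA-266, by 1.3-fold and 1.4-fold (*NFKB2* per *RELA*), 2.89-fold and 2.70-fold (*TNFAIP3* per *NFKB1*), 1.59-fold and 2.51-fold (*RELB* per *REL*) and 0.893-fold and 1.45-fold (*NFKBIE* per *NFKBIA*), the last in opposite directions. A ratio shows that the genes of a pair changed unequally and not which of them moved, and these ratios were not tested.

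**Figure D4:**
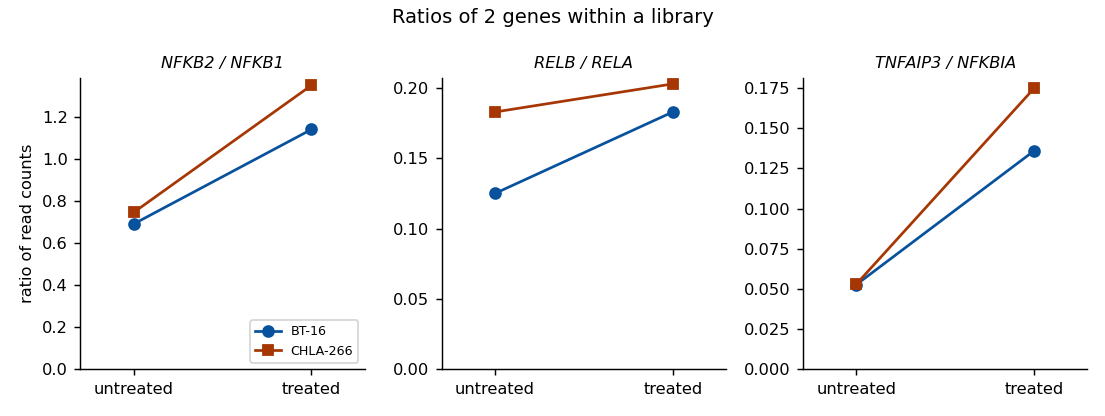
Ratios of read counts of 2 genes within each library, untreated at left and treated at right of each panel, blue circles BT-16 and orange squares CHLA-266; each point is 1 library and each axis starts at 0. The 3 ratios shown, of 7 computed, are higher in the treated library of each line, TNFAIP3 per NFKBIA by 2.59-fold and 3.30-fold and RELB per RELA in CHLA-266 by only 1.11-fold.

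The scaling also moved the centre of all genes, whose median log2 fold change was 0.24 with TMM, 0.31 with DESeq2 size factors, 0.46 with library totals and 0.59 with the upper quartile. Calls in all genes split accordingly, 2910 higher and 3454 lower with TMM (45.7% higher), 3678 and 2353 with library totals (61.0%) and 4361 and 1895 with the upper quartile (69.7%). Relative to the TMM median, *TNFAIP3* was at 1.32, *NFKB2* at 0.63, *RELB* at 0.54 and *NFKBIA* at -0.24. Another scaling shifts all genes nearly alike and so leaves these distances as they are. The distances do depend on which genes are kept. Once genes under 10 counts in any library were dropped, the median was 0.0052 and *NFKBIA*, at 0.18, lay above it. *TNFAIP3* (1.74), *NFKB2* (1.05) and *RELB* (0.95) were above that median too. With filterByExpr the median was 0.11 and *NFKBIA*, at 0.032, stayed below it.

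Beyond the members, 94 genes of the pathway were listed by role and 90 were tested. Of these, 16 were higher, 4 lower and 70 did not pass, so the 17.8% higher is close to the 16.1% of all genes. With the cell line as a block, 15 were higher and 6 lower. The median log2 fold change of the 90 was 0.88, beside 0.24 over all genes. It was 0.81 with the 15 genes at no more than 3 counts in both untreated libraries set to their lower bound, beside 0.19 over all genes. By role the median was not uniform and ran from -0.1 (other inhibitors) to 2.3 (ligands, which were scarce). In both treated libraries 42 of the 90 lay above the level of the unused families, beside 10271 of all 18066 genes. Of the 16 higher genes 11 did, beside 1250 of the 2910 higher among all genes.

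Kinases and adaptors, which carry the signal from receptors to the IκB kinase, had 22 tested genes. Of these, 3 were higher (13.6%, beside 16.1% of all genes) and 1 lower (19.1% of all genes), with a median of -0.041. *IKBKG* and *IRAK1* were listed too but are absent from the count table, so nothing can be said of them. *MAP3K14*, the kinase of the non-canonical branch, had 1707 and 1826 counts untreated and 2435 and 2979 treated in BT-16 and CHLA-266, a log2 fold change of 0.87 (SE 0.21, edgeR adjusted p = 0.0131). Both treated libraries were higher in CPM. The call was lost without untreated BT-16 (0.75, adjusted p = 0.0673). *TRAF2*, an adaptor that takes part in the degradation of the *MAP3K14* product, was the lower one: 1421 and 1200 counts untreated and 310 and 454 treated, a log2 fold change of -1.51 (SE 0.29, edgeR adjusted p = 0.00547). Of other genes in the list, *TRAF3* (-0.23, edgeR adjusted p = 0.374), *BIRC2* (-0.27, 0.258) and *CHUK* (-0.044, 0.831) did not pass. *TRAF6*, the adaptor of Toll-like and interleukin receptors, rose by 0.92 (adjusted p = 0.00633), as did *BTRC*, a ligase subunit that marks IκB proteins (0.57, adjusted p = 0.0222). *TRAF1*, the most abundant, was at 0.22 (adjusted p = 0.579). With the cell line as a block *TAB2* also passed as lower (-0.46, adjusted p = 0.0114, against 0.0713 without it).

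Of 17 receptors 4 were higher (23.5%, beside 16.1% of all genes) and 1 lower (19.1% of all genes), with a median of 1.28. *LTBR*, the lymphotoxin beta receptor that signals to the non-canonical branch, had 617 and 409 counts untreated and 969 and 1394 treated, a log2 fold change of 1.48 (SE 0.30, edgeR adjusted p = 0.00677). The treated libraries were higher in both lines. *TNFRSF12A*, the receptor of TWEAK, fell by 1.37 on the log2 scale (SE 0.19, edgeR adjusted p = 0.00117), from 3543 and 3377 counts to 1046 and 1199. Receptors feeding the same branch thus moved in opposite directions. *TLR6* rose by 1.80 (adjusted p = 0.00893), but it shares much sequence with *TLR1*, also called, and reads could be split between the pair. *TNFRSF1A*, the most abundant receptor, was at -0.21 (adjusted p = 0.324).

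Ligands were scarce. Of 10 tested, 2 were higher (20.0%, beside 16.1% of all genes) and none lower (19.1% of all genes). No ligand lay above the level of the unused families in both treated libraries. *TNFSF15* held 0 counts in both untreated libraries and 52 and 14 after treatment, at least 12.7-fold higher against a floor of 3 counts per library, and *LTA* held 0 and then 16 and 32 counts, at least 9.68-fold. In counts per kilobase, *TNFSF15* was at 6.68 and 1.8 and *LTA* at 9.21 and 18.4 in treated BT-16 and CHLA-266. Both were below the 95th percentile of the unused families there (40.9 and 27.8) and above their median (4.54 and 0.563). *LTA* did not pass with the cell line as a block (adjusted p = 0.0736). The call of *TNFSF15* was lost without either untreated library or treated BT-16 (adjusted p from 0.0512 to 0.173), and that of *LTA* without either untreated library or treated CHLA-266 (0.0784 to 0.209). *TNFSF12*, the TWEAK gene and the most abundant ligand, had 366 and 206 counts untreated and 170 and 105 treated (-0.80, edgeR adjusted p = 0.192), and its reads could be shared with a readthrough transcript into the neighbouring *TNFSF13*.

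Of the other inhibitors of the pathway, 12 genes, 0 passed as higher and 2 passed as lower, beside 16.1% and 19.1% of all genes. *OTULIN*, which removes linear ubiquitin chains, was at -0.68 (edgeR adjusted p = 0.0144) and *COMMD1*, which promotes turnover of RELA, at -0.61 (adjusted p = 0.0302). For the count of 0 higher, 0 had an unadjusted p under 0.05 and DESeq2 gave 0, but the count was 1 with upper-quartile scaling, with library totals and without treated BT-16. Both calls were lost with upper-quartile scaling (adjusted p of 0.153 and 0.263) and library totals (0.0719 and 0.121), that of *COMMD1* also when genes under 10 counts in any library were dropped (0.0886). The call of *OTULIN* was lost without untreated CHLA-266 (0.0864), and that of *COMMD1* without either untreated library or treated BT-16 (0.0668 to 0.158). *TNIP1*, a partner of the *TNFAIP3* product and the most abundant of the list, had 7071 and 5098 counts untreated and 5552 and 8122 treated (0.45, adjusted p = 0.171), and it was the gene that passed in those 3 fits (adjusted p of 0.0241, 0.0435 and 0.00329). *NFKBIZ*, an atypical IκB gene, was higher in both treated libraries (0.91, SE 0.61) but did not pass (adjusted p = 0.261).

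Known target genes outside the members had 29 tested, of which 7 were higher (24.1%, beside 16.1% of all genes) and 0 lower (19.1% of all genes). Their median was 1.99, beside 0.24 over all genes, or 1.40 and 0.19 with genes near 0 at their bound. For lower targets the count at an unadjusted p under 0.05 was 0 and DESeq2 gave 0, but it was 1 with the cell line as a block (*LIF*, -0.51, adjusted p = 0.0491, against 0.137 without it) and 1 without treated BT-16. *SQSTM1*, an autophagy receptor, went from 20193 and 14734 counts to 52441 and 44859, a log2 fold change of 1.73 (SE 0.18, edgeR adjusted p = 0.000245). *CSF1*, the macrophage growth factor gene, went from 968 and 916 to 2161 and 4047 counts, a change of 1.99 (SE 0.32, adjusted p = 0.00211). Both are also targets of other pathways. *CCL2*, *CCL5*, *IER3*, *MMP9* and *CD83* were the other 5. In both treated libraries 4 of the 7 lay above the level of the unused families, beside 1250 of the 2910 higher among all genes. With the block *CCL5* did not pass (adjusted p = 0.0535) and *IRF1* did, as higher (0.88, adjusted p = 0.0412, against 0.0757 without it). The number of higher targets was 4 without treated BT-16.

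**Figure D5:**
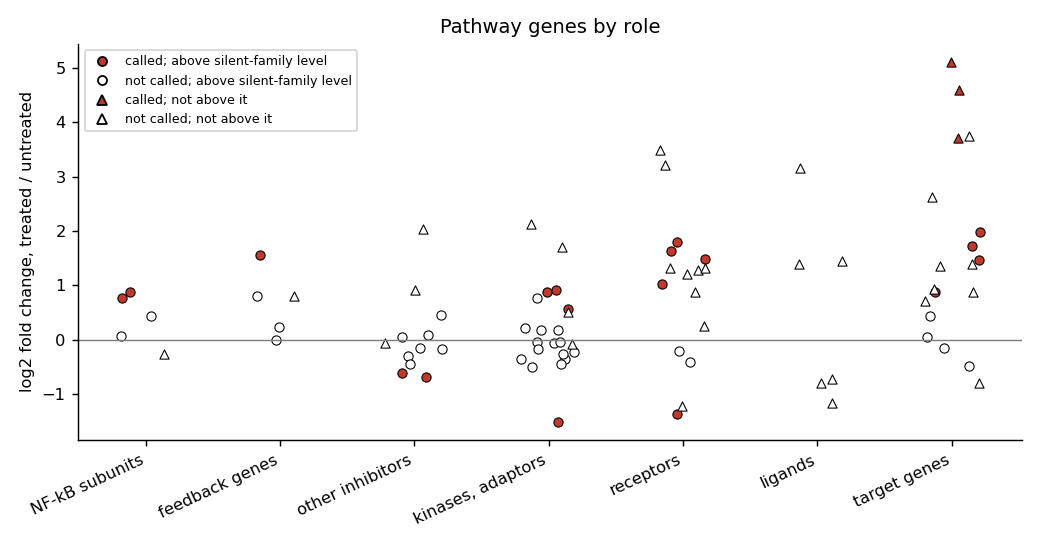
Log2 fold change of treated against untreated libraries (edgeR) for the members and the other pathway genes by role, each point 1 gene, without genes at no more than 3 counts in both untreated libraries; red points have an adjusted p under 0.05, circles lie above the 95th percentile of the unused families in both treated libraries and triangles do not. Called genes lie on both sides of 0 among kinases, adaptors and receptors, and every called target gene lies above 0.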

How the data were processed

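RNA of 2 AT/RT-MYC cell lines, untreated or treated, was sequenced in 4 libraries that share a single batch label. The authors deposited a table of estimated counts per gene symbol (STAR and bcl2fastq 2.20, hg38, per the labels) and a table of log2-scale variance-stabilized values. The count table holds 18449 symbols, of which 383 are 0 in all libraries; 2 genes had 5 fractional values, rounded here. The variance-stabilized table holds 17553 genes, those with a total of at least 10 counts, and served only as an alternative. Whether reads were counted by strand is not given in the sources used here. Of counts from 1 to 20, 20.5% to 34.2% were odd, so counting intervals were also computed with halved counts.

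The members, lists and tests were chosen with earlier results of these data known. The test of treatment was that of edgeR 4.0.16 (R 4.3.3; TMM, quasi-likelihood test, two-sided, 18066 genes, Benjamini-Hochberg adjusted p under 0.05 over all genes). SE is the log2 fold change divided by the root of the F statistic. The cell lines served as replicates, so p-values measure the spread between these 4 libraries. Replicate numbers stand for the cell line, which pairs the libraries: their deviations from the condition means correlated at 0.257 over 12620 genes. Cell line was therefore a block in an alternative, and its p-values are given for members and pathway genes whose call it changes. The lines were compared with treatment in the model.

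Ratios within a line used TMM-normalized counts with 0.5 added and exact (Clopper-Pearson) 95% intervals, which cover counting error only, as does the floor of 3 counts per library. Exon lengths came from GENCODE 44 (18357 symbols matched), the canonical transcript length being an alternative chosen after seeing the data. Promoter windows came from RefSeq (GRCh38.p14). Alternatives were DESeq2 1.42.0 with and without the block, its size factors in edgeR, upper-quartile scaling, library totals, at least 10 counts in every library, filterByExpr, limma 3.58.1 on the deposited log2 values, and each library left out. The edgeR script was tested on simulated data. All members are named. Of each other pathway list, the most abundant gene is named. So are the 2 called genes of smallest adjusted p in each direction that moved alike in both lines. Of each marker list, only the most abundant gene was named by this rule. *SMARCB1* was named as the check of the labels. The nearest genes to the called member of smallest adjusted p are also named. *SMARCA4*, *CD68*, other markers at 0, *COL1A2*, *BTRC*, *TAB2*, *NFKBIZ*, *TLR1*, *LIF*, *IRF1* and the remaining called targets were named after their values were seen.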

Additional observations from a re-analysis of the deposited data

Results flagged for a closer look

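With TMM scaling, in 5 members the treated library lay above its untreated partner in one line and below it in the other. The log2 ratios in BT-16 and CHLA-266 were -0.11 and 0.24 for *NFKB1*, 0.12 and -0.56 for *REL*, 0.052 and -0.053 for *NFKBIA*, -0.11 and 0.49 for *NFKBIE* and 1.01 and -0.60 for *BIRC3*. The same was seen for *TNIP1* (-0.094 and 0.92) and for the most abundant marker of macrophages, *CSF1R* (1.04 and -0.51), and of lymphocytes, *CD4* (0.44 and -0.73). With library totals or upper-quartile scaling, *REL*, *BIRC3*, *CSF1R* and *CD4* still had opposite signs, while *NFKB1*, *NFKBIA*, *NFKBIE* and *TNIP1* were positive in both lines; the BT-16 ratio of *TNIP1* was then 0.20 and 0.30. With 1 library per line and condition the difference between the lines was not tested. The ratios of *NFKBIA* had counting intervals that include 0 once counts were halved (-0.018 to 0.12 and -0.12 to 0.018), and those of *BIRC3* rest on 20, 34, 4 and 2 counts.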

How the results depend on the processing

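The number of higher members was 3 in the fit reported and 5 in each of the 9 alternatives that kept the 4 libraries: the replicate block for cell line, DESeq2, DESeq2 with the block, DESeq2 size factors, upper-quartile scaling, library totals, at least 10 counts, filterByExpr and limma. The 5 were *NFKB2*, *RELA*, *RELB*, *TNFAIP3* and *TNFAIP2* each time. Without 1 library it ranged from 2 to 4, and the lower members stayed at 0 throughout. In those fits the condition with 1 library left is assumed to vary like the other. Over all genes, 1895 were lower with upper-quartile scaling against 3454. The log2 ratio of *NFKB1* in BT-16 turned from -0.11 to 0.18 with library totals and to 0.29 with upper-quartile scaling, that of *NFKBIE* in BT-16 likewise from -0.11 to 0.18 and 0.29, and that of *NFKBIA* in CHLA-266 from -0.053 to 0.11 and 0.24. Between the lines, 0 members passed in any alternative. With canonical transcript lengths, 8 members lay above the unused families in both treated libraries, as before. Leaving out a library moved the count of all higher genes to 2025–2506 and of lower genes to 2334–3326. Counts of 2 to 34 limited what could be seen of *BIRC3*.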
